A study of Mus musculus with 8 samples.

Results

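The genes described here carry acetylcholine through its cycle of synthesis, vesicle loading, choline recapture and breakdown: *Chat*, *Slc18a3*, *Slc5a7*, *Ache*, *Bche*, *Prima1* and *Colq*. They were taken as a named set of 7 genes, and every non-control probe whose RefSeq accession belongs to one of them was included, which gave 10 of the 55681 probes on the array. Of the 7 genes, 5 were read by at least 1 probe well above background on 2 or more of the 8 arrays and entered the test, among 26211 tested genes and other features. They had 7 probes that passed, and each gene was tested by its brightest one. *Slc5a7* and *Bche* did not pass this filter and have no test.

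Choline acetyltransferase, encoded by *Chat*, joins choline to the acetyl group of acetyl coenzyme A. The product is loaded into synaptic vesicles by the vesicular acetylcholine transporter, encoded by *Slc18a3*, a gene that lies inside the *Chat* gene and shares its strand, an arrangement known as the cholinergic gene locus. After release, acetylcholinesterase, encoded by *Ache*, splits the transmitter, and the choline transporter encoded by *Slc5a7* brings the choline back into the terminal. Butyrylcholinesterase, encoded by *Bche*, is a related enzyme of plasma, liver and glia. Acetylcholinesterase has no membrane anchor of its own in its main form: PRiMA, encoded by *Prima1*, holds it on the surface of neurons, and the collagen tail encoded by *Colq* holds it in the matrix of the neuromuscular junction. Neuroblastoma lines derive from the sympathetic lineage, in which noradrenergic and cholinergic neurons both occur.

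Gene expression was measured on 8 arrays that carried 1 dye, in a mouse neuroblastoma line and in 1 clone of it. The groups were the 2/4 clone treated with retinoic acid (RA), the untreated 2/4 clone, parental N18TG2 cells treated with RA and untreated parental N18TG2 cells, with 2 arrays each. The labels call the 2/4 clone ChAT-expressing. The labels give neither the construct nor the species of its ChAT sequence, and since the clone is a single one, what the introduced gene did and what is peculiar to that clone cannot be told apart. It was kept in G418 at 200 µg/mL, which the labels give for the clone only. RA, a vitamin A derivative that drives neuronal differentiation of such lines, was added to 1 µM, and this medium held 1% serum, whereas growth medium held 10%. The labels state neither the serum of the untreated cells during treatment nor its length, so whether serum differed along with RA is not known here.

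On these arrays, 48.6% to 63.3% of spots were well above background on 7 arrays and 72.1% on replicate 1 of the RA-treated clone, and that array and its partner had a Pearson r of 0.963 over features, while r was 0.983 to 0.987 for the remaining pairs. Levels are given below as relative signal, the background-subtracted intensity in percent of the array's own 75th percentile, which ran from 264.8 to 1264 intensity units. All 16 markers listed for sympathoadrenal neuroblasts were above background on both arrays of every group. Of 16 markers of hippocampal neurons, the tissue that the extraction protocol names, 5 or 6 were above background on both arrays in each group, and *Neurod6*, *Emx2*, *Prox1* and *Neurod2* were above it in none. The arrays lay in 2 rows of 1 slide. Row goes with each comparison of 2 groups and with the interaction, so row and group cannot be told apart there. Row cancels in the averages over both lines or both treatments. The parental arrays lay in slide columns 1 and 3 and the clone arrays in columns 2 and 4. Column therefore goes with line in every comparison of the lines, their average included, and cannot be told apart from line.

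The RefSeq promoter windows of 4 of the genes are printed. *Ache*, *Prima1* and *Slc18a3* had called differences, and *Chat*, which had none, shares the cholinergic locus with *Slc18a3*. Each runs 5′ to 3′ on the gene's own strand from 250 bases before to 50 after the start of transcription in build GRCm38.p6, and capitals mark matches on either strand to AGGTCA (the core letters bound by retinoic acid receptors), GGGCGG (Sp1), CANNTG (E box), TGACGTCA (cyclic AMP response element), GCGNGGGCG (Egr1) and TGANTCA (AP-1), with neighbouring matches joined. *Colq* has no entry in the table used.
Ache (chr5:137288004-137288303, plus strand): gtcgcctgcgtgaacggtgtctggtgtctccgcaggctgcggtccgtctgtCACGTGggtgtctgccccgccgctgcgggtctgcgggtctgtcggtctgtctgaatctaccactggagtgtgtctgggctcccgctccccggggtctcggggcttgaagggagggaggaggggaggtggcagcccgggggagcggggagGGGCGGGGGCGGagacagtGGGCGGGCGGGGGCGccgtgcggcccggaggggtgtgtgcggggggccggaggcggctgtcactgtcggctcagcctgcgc
Prima1 (chr12:103242097-103242396, minus strand): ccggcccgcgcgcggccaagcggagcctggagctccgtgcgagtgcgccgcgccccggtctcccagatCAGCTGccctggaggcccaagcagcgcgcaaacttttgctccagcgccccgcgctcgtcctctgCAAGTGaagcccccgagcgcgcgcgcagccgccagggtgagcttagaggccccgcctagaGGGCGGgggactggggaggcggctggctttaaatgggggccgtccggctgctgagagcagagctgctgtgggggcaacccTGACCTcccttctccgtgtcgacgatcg
Slc18a3 (chr14:32464801-32465100, minus strand): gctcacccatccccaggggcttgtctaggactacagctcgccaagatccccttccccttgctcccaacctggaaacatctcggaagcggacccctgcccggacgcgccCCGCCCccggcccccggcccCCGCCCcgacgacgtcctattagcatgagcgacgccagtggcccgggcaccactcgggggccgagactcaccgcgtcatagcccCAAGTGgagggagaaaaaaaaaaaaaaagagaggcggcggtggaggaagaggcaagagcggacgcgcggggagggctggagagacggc
Chat (chr14:32465860-32466159, minus strand): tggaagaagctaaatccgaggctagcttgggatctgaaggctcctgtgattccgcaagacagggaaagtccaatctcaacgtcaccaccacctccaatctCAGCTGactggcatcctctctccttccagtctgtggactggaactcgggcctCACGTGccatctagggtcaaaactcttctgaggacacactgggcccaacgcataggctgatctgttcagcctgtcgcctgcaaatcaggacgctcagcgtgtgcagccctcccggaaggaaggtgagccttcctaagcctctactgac
The *Ache* window held 4 matches to the Sp1 letters and 2 to the Egr1 letters, which overlap them. The *Prima1* window held the receptor letters 1 time, after the start and on the opposite strand, and *Slc18a3* held 2 Sp1 matches. The *Chat* window held 2 E boxes and no match to the other 5 motifs. Among 32851 promoter windows of the same length, 35.7% held the Sp1 letters, 5.55% the Egr1 letters, 16.3% the receptor letters, 72.3% an E box, 7.81% the AP-1 letters and 1.79% the cyclic AMP letters, so most of these matches are common. A match is a run of letters and was not tested as a binding site.

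The members moved in different directions. *Ache* was high in the RA-treated clone alone among the 4 groups, *Prima1* was high in the clone with or without RA, and *Slc18a3* was lower in the clone in both treatments. *Chat* and *Colq* were read high on one array of the RA-treated clone and did not pass the test. The plot of relative signal by array shows these patterns.

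**Figure D1:**
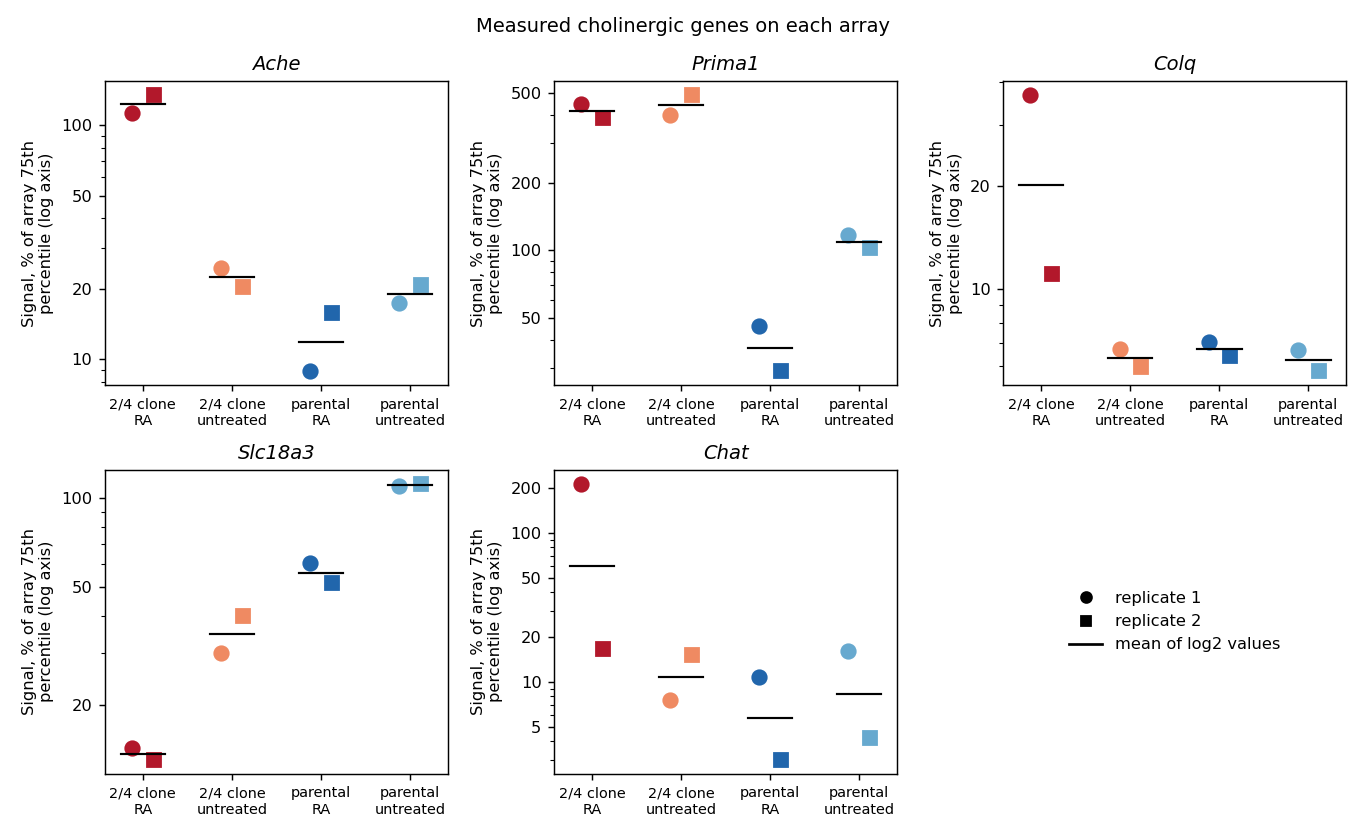
Relative signal (background-subtracted intensity in percent of the array's 75th percentile, log axis) of the 5 tested genes on each of the 8 arrays, by group; circles are replicate 1, squares replicate 2 and lines the mean of the log2 values. Ache stands at 113% and 135% in the RA-treated clone and at 24.6% or less elsewhere, Prima1 at 388% to 491% on the 4 clone arrays and at 116% or less on the 4 parental arrays, and Slc18a3 is lowest in the RA-treated clone, at 14.3% and 13.0%.

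*Chat*, read by 1 probe, had relative signals of 215% and 16.7% in the RA-treated clone, 7.55% and 15.2% in the untreated clone, 10.8% and 2.99% in RA-treated parental cells and 16.1% and 4.21% in untreated parental cells. One array, replicate 1 of the RA-treated clone, stood far above all others, and the untreated clone and untreated parental arrays overlapped. The probe was well above background on all 8 arrays, and no *Chat* spot was saturated or marked as an outlier.

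Before scaling, *Chat* was nearly level in the parental cells. On the 4 parental arrays it lay between 32.6 and 44.2 intensity units, although their 75th percentiles ran from 264.8 to 1264, and the lowest signal that counted as well above background was 10.1 to 16.3 over the arrays. On the clone arrays the same probe ran from 45.9 to 1014 units. Before scaling, the lowest clone reading thus lay just above the highest parental one, and after scaling the lines overlapped. How many other features have such an order before scaling was not counted, so no result is read from it.

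Between the untreated lines, the clone minus parental difference of *Chat* was log2 0.38 ± 1.27 (standard error, n = 2 arrays per group), with a 95% interval from -2.62 to 3.38 (limma adjusted p = 0.897), so a higher *Chat* level in the untreated clone was not detectable with this probe after scaling. Whether the probe lies in the introduced sequence is not known here. Under RA the difference was 3.40 ± 1.27 (interval 0.40 to 6.41, adjusted p = 0.0994). Without replicate 1 of the RA-treated clone it was 1.56 (adjusted p = 0.315), and without replicate 2 it was 5.24 (adjusted p = 0.00711). The replicates differed by log2 3.68, and 2.09% of the 26211 features differed by at least as much in that direction between the same arrays.

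*Slc18a3*, the vesicle loader nested in *Chat*, had relative signals of 14.3% and 13.0% in the RA-treated clone, 30.0% and 40.0% in the untreated clone, 60.2% and 51.5% in RA-treated parental cells and 110% and 112% in untreated parental cells. The 4 groups did not overlap, and each pair of replicates lay close together. In the comparisons of 2 groups, 44.3% to 60.2% of all features did not overlap. How many features keep all 4 groups apart was not counted, so no result is read from that order. Its host gene *Chat* had its highest reading in the group where *Slc18a3* was lowest, but on replicate 1 only, at 215%. Replicate 2 of that group read *Chat* at 16.7%, and no *Chat* difference was called, so no opposite change is read from this.

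The clone had 3.21-fold lower *Slc18a3* signal than the parental line without RA (log2 -1.68 ± 0.28, adjusted p = 0.0111) and 4.09-fold lower signal with RA (-2.03 ± 0.28, adjusted p = 0.00286). Averaged over both treatments, where slide row cancels but slide column does not, the difference was -1.86 ± 0.20 (adjusted p = 0.000714). This average kept its sign and call in all 19 alternatives run. The call without RA ended with quantile normalization (adjusted p = 0.0567) and without any 1 of the 4 untreated arrays (0.055 to 0.0924).

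With RA, *Slc18a3* in the clone was 2.54-fold lower than without (-1.35 ± 0.28, adjusted p = 0.0446), and in the parental line the difference was -0.99 ± 0.28 (adjusted p = 0.155). Averaged over both lines, the RA difference was -1.17 ± 0.20 (adjusted p = 0.0246), a call that ended in 8 of 19 alternatives. The call in the clone ended in 14 of 20 alternatives, among them leaving out each of the 8 arrays, with adjusted p from 0.0173 to 0.289 and values from -1.96 to -0.89. The interaction for *Slc18a3*, its RA difference in the clone minus that in the parental line, was -0.35 ± 0.39 (interval -1.28 to 0.57, adjusted p = 0.785).

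*Slc5a7*, the choline transporter that recaptures choline, was read by 2 probes, and neither was well above background on any array. Their unscaled signals ran from 2.04 to 5.61 and from 2.52 to 6.21 intensity units, below the lowest signal that counted as well above background. *Bche*, the second cholinesterase, was read by 1 probe with 2.28 to 7.72 units, also not well above background on any array. No fold is given for either gene.

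*Ache*, the enzyme of breakdown, rose with RA in the clone. By its brighter probe, *Ache* had relative signals of 113% and 135% in the RA-treated clone, 24.6% and 20.4% in the untreated clone, 8.90% and 15.8% in RA-treated parental cells and 17.4% and 20.8% in untreated parental cells. Both arrays of the RA-treated clone lay far above the other 6. The second *Ache* probe gave the same order of the highest group, with 77.2% and 94.6% in the RA-treated clone against 18.8% and 28.0% in the untreated clone, and 7.02% and 14.7% in RA-treated against 18.6% and 21.6% in untreated parental cells. Both probes carry the same RefSeq accession, so which *Ache* splice form was read was not tested.

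In the clone, *Ache* was 5.50-fold higher with RA than without (log2 2.46 ± 0.35, interval 1.63 to 3.29, adjusted p = 0.0216). With RA in both, the clone stood 10.4-fold above the parental line (3.38 ± 0.35, interval 2.55 to 4.20, adjusted p = 0.001), and without RA by 0.23 ± 0.35 (interval -0.59 to 1.06, adjusted p = 0.746). In the parental line the RA difference was -0.68 ± 0.35 (adjusted p = 0.452), with both RA arrays below both untreated ones. The RA response of the clone minus that of the parental line was 3.14 ± 0.49 (interval 1.98 to 4.31, adjusted p = 0.0702), so a difference between the responses missed the threshold.

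The *Ache* difference between the lines under RA held its call in all 20 alternatives, from 2.61 to 3.79, and was 3.51 (adjusted p = 0.00201) without replicate 1 of the RA-treated clone. The call for RA in the clone ended with no filter on dim probes (adjusted p = 0.0807), with only the clone arrays fitted (0.1) and without either untreated clone array (0.13 and 0.179) or either untreated parental array (0.0516 each). With the second probe fitted on its own, the RA difference in the clone was 1.90 ± 0.43 (adjusted p = 0.0685) and the difference between the lines under RA was 3.07 ± 0.43 (adjusted p = 0.00409).

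**Figure D2:**
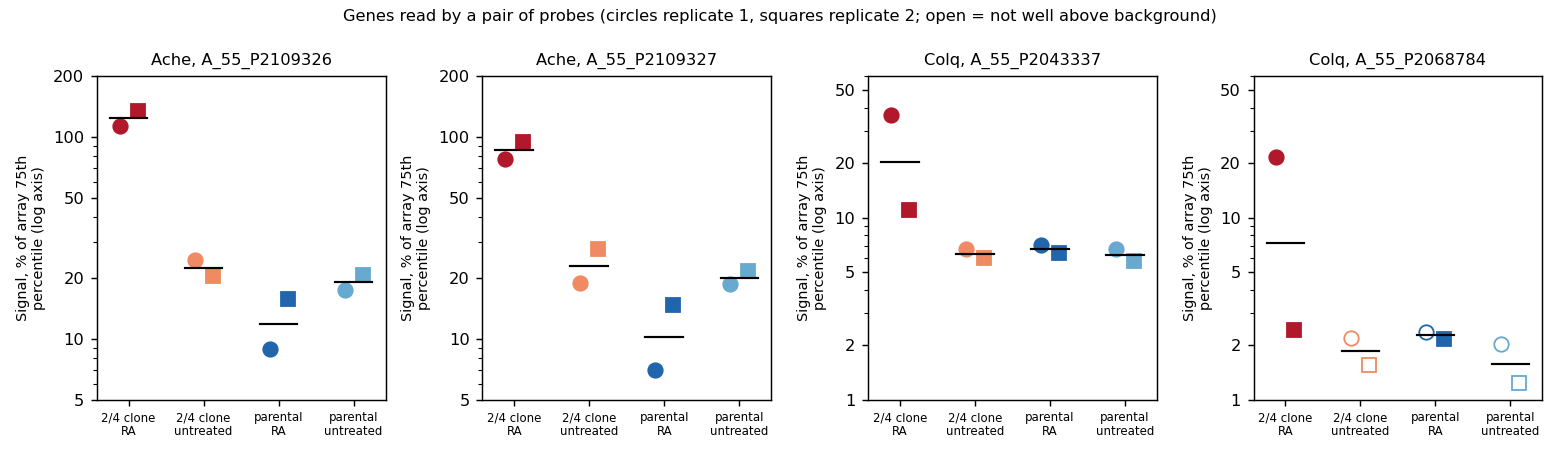
Relative signal in percent of the array's 75th percentile (log axis) for both probes of Ache and both of Colq, by group; filled symbols were well above background and open ones were not. Both Ache probes are high on both arrays of the RA-treated clone, whereas both Colq probes are high on replicate 1 of that group, at 36.6% and 21.5%, and much lower on replicate 2, at 11.1% and 2.41%.

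*Prima1*, the membrane anchor of neuronal acetylcholinesterase, had relative signals of 447% and 388% in the RA-treated clone, 399% and 491% in the untreated clone, 46.3% and 29.0% in RA-treated parental cells and 116% and 102% in untreated parental cells. All 4 clone arrays lay above all 4 parental arrays. Between the lines, 58.8% of all features had groups that did not overlap under RA and 60.2% without. How many keep all clone arrays apart from all parental ones was not counted. The clone groups overlapped, and in the parental line both RA arrays lay below both untreated ones.

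The clone exceeded the parental line 4.05-fold in *Prima1* without RA (log2 2.02 ± 0.32, adjusted p = 0.00974) and 11.4-fold with RA (3.51 ± 0.32, adjusted p = 0.00065). The average over both treatments was 2.76 ± 0.23 (adjusted p = 0.000241), called in all 19 alternatives. With RA, *Prima1* in the clone differed by -0.09 ± 0.32 (interval -0.85 to 0.67, adjusted p = 0.901), and in the parental line by -1.58 ± 0.32 (interval -2.33 to -0.82, adjusted p = 0.0782). The call without RA ended without any 1 of the 4 untreated arrays (adjusted p from 0.0548 to 0.0939). The difference between both RA responses was 1.49 ± 0.45 (adjusted p = 0.215).

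*Colq*, the collagen tail of junctional acetylcholinesterase, had relative signals of 36.6% and 11.1% in the RA-treated clone, 6.72% and 5.97% in the untreated clone, 7.05% and 6.42% in RA-treated parental cells and 6.69% and 5.79% in untreated parental cells. The 6 arrays outside the RA-treated clone spanned a narrow range, and both arrays of that group lay above them. Under RA the clone minus parental difference was 1.58 ± 0.53 (adjusted p = 0.0729), and in the clone the RA difference was 1.67 ± 0.53 (adjusted p = 0.128).

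The replicates of the RA-treated clone differed by log2 1.73 in *Colq*. In the same direction, 11.1% of the 26211 features differed by at least as much between these arrays. The *Colq* values rested on replicate 1 of the RA-treated clone. With that array left out, the line difference under RA came to 0.72 (adjusted p = 0.22) and the RA difference within the clone to 0.80 (adjusted p = 0.313). With replicate 2 left out in its place, they came to 2.45 (adjusted p = 0.00301) and 2.53 (adjusted p = 0.00805). The dimmer *Colq* probe had 21.5% and 2.41% in the RA-treated clone. In the untreated clone it had 2.17% and 1.55%, not well above background on either array. The mean of both RA arrays was at least 3.69-fold higher than in the untreated clone. This bound rests on replicate 1, since replicate 2 lay close to the untreated readings. The RA difference of this probe in the clone had a limma adjusted p of 0.292.

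**Figure D3:**
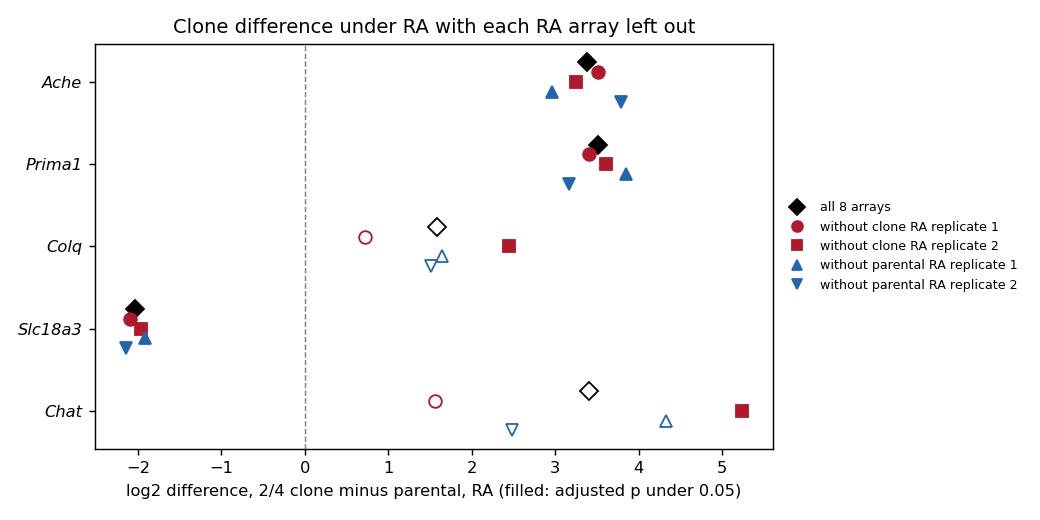
Difference between the 2/4 clone and the parental line under RA (log2, horizontal axis) for the 5 tested genes, with all 8 arrays and with each of the 4 RA arrays left out; filled symbols have a limma adjusted p under 0.05. Ache, Prima1 and Slc18a3 stay filled, at 3.38, 3.51 and -2.03 with all arrays, whereas Chat moves between 1.56 and 5.24 and Colq between 0.72 and 2.45.

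The counts of called members were small. Without RA the clone differed from the parental line in 2 of 5 tested members, *Prima1* higher and *Slc18a3* lower, against 9.84% of all tested features called, 6.15% higher and 3.69% lower. Under RA it differed in 3, *Ache* and *Prima1* higher and *Slc18a3* lower, against 23.2%, of which 12.9% were higher and 10.3% lower. RA against untreated called 2 members in the clone, *Ache* higher and *Slc18a3* lower, against 4.64% (2.59% higher, 2.06% lower). In the parental line limma called 0 members, against 1.13% (0.542% higher, 0.591% lower), and 2 of the 5, *Slc18a3* and *Prima1*, had an unadjusted p under 0.05. The interaction called 0, against 0.206% (0.122% higher, 0.0839% lower), with 2 members, *Ache* and *Prima1*, at an unadjusted p under 0.05. The averages called 3 for the clone, against 27.7% (16.1% higher, 11.6% lower), and 1 for RA, against 5.91% (3.17% higher, 2.74% lower). With 2 arrays a group, groups that do not overlap are common: the share of all features was 58.8% between the lines under RA, 60.2% without RA, 52.9% for RA in the clone and 44.3% for RA in the parental line. Over 5 genes the counts of calls describe the members and set them apart from nothing. In RNA from whole cultures, fewer expressing cells and less RNA per cell cannot be told apart.

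**Figure D4:**
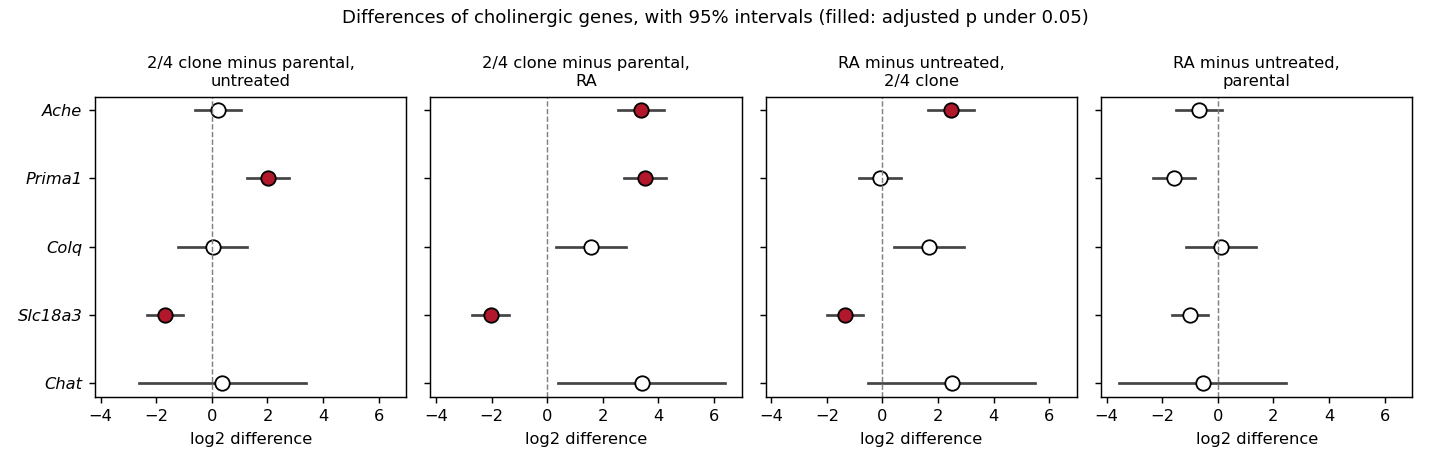
Log2 differences with 95% intervals from the limma fit (2 arrays per group) for the 5 tested genes in the 4 comparisons of 2 groups; filled points have an adjusted p under 0.05. Prima1 lies at 2.02 and 3.51 and Slc18a3 at -1.68 and -2.03 for the clone, Ache at 2.46 for RA in the clone, and the intervals of Chat are the widest.

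Markers of skeletal muscle, in which *Ache* and *Colq* are also expressed, differed in number by group. Of 12 such markers, 5 were above background on both arrays in the RA-treated clone, 6 in the untreated clone, 3 in RA-treated and 2 in untreated parental cells. Their summed relative signal was 3366% to 4144% in the RA-treated clone, 2555% to 2605% in the untreated clone, 1792% to 2725% in RA-treated parental cells and 2705% to 2750% in untreated parental cells. *Myf5* and *Ckm*, a muscle determination factor and the muscle creatine kinase, were not above background on any array of any group. Of 7 tested muscle markers, the clone was higher in 2 under RA and lower in 0, against 23.2% of all features called. They were *Tnnt1* (log2 4.00 ± 0.28, limma adjusted p = 0.000239) and *Des* (3.33 ± 0.84, adjusted p = 0.0308). *Des* read 20.6% and 2.63% in the RA-treated clone and was not well above background on any parental array. The sympathoadrenal markers had summed relative signals of 66496% to 72958% in the RA-treated clone, 45354% to 46119% in the untreated clone, 12961% to 16663% in RA-treated parental cells and 27993% to 37388% in untreated parental cells. Such sums are weighted toward the brightest markers, and single markers went both ways. Under RA the clone was higher in 10 of 16 and lower in 2, against 23.2% of all features called. Without RA it was higher in 2 and lower in 2, against 9.84%. Without RA the 2 higher ones were *Stmn2* (log2 3.88 ± 0.35, limma adjusted p = 0.000923) and *Elavl4* (1.25 ± 0.29, adjusted p = 0.0422). The 2 lower ones were *Dbh* (log2 -5.67 ± 0.43, limma adjusted p = 0.000496) and *Ddc* (-2.47 ± 0.28, adjusted p = 0.00252). Of 13 Schwann and glial markers, 6, 7, 6 and 5 were above background on both arrays in the RA-treated clone, the untreated clone, RA-treated and untreated parental cells, and of 10 blood, vessel and microglial markers 8, 7, 5 and 5. The part of these lists in the results for *Ache*, *Prima1* and *Colq* was not tested.

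The steps that feed the cycle were read from 5 further lists. Of 22 genes of choline supply and use, 17 were tested, and under RA the clone was higher in 6 and lower in 2 (median log2 difference 0.97, against 0.11 over all features), and without RA higher in 2 and lower in 1 (median 0.72, against 0.11). Scaling shifted the median of all features, to -0.15 under RA and 0.05 without with quantile normalization, and to 0.08 and -0.19 with normexp background correction. *Pld2*, a phospholipase D that frees choline from phosphatidylcholine, was 14.0-fold higher in the clone under RA (3.81 ± 0.29, adjusted p = 0.000347) and 5.74-fold higher without (2.52 ± 0.29, adjusted p = 0.00271). Its relative *Pld1* was higher under RA (2.95 ± 0.33, adjusted p = 0.00133), and in the parental line it fell with RA (-2.47 ± 0.33, adjusted p = 0.0232). *Pcyt1b*, an enzyme of phosphatidylcholine synthesis, was not well above background in either parental group and at least 14.8-fold higher in the clone with RA and 4.04-fold without (adjusted p = 0.00048 and 0.00515). These bounds hold for the scaling used here: with normexp background correction the *Pcyt1b* difference was log2 1.83 with RA, still called, and 0.29 without (adjusted p = 0.857), where the call ended. *Chka*, the choline kinase that takes choline into that pathway, was the other way, 6.55-fold lower in the clone under RA (-2.71 ± 0.28, adjusted p = 0.000998) and 3.16-fold lower without (adjusted p = 0.0123), and it rose with RA in the parental line (1.76 ± 0.28, adjusted p = 0.0442).

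Of 17 tested genes that supply acetyl coenzyme A, 4 were higher in the clone under RA and 1 without, and none was lower. *Acly*, which makes cytosolic acetyl coenzyme A from citrate, was 3.24-fold higher under RA (1.70 ± 0.29, adjusted p = 0.00764), and *Acss1*, a mitochondrial acetate-activating enzyme, 3.01-fold higher (1.59 ± 0.35, adjusted p = 0.0195). *Pdk1*, a kinase that inhibits pyruvate dehydrogenase, was 13.9-fold higher with RA (adjusted p = 0.00109) and 6.27-fold higher without (adjusted p = 0.00816), although only 1 of the 2 untreated parental arrays read it well above background. With normexp the *Pdk1* difference without RA was log2 1.08 and no longer called (adjusted p = 0.202), and with RA it was 2.37 and called. *Acat1*, a mitochondrial thiolase, fell with RA on average over both lines (-1.09 ± 0.24, adjusted p = 0.0458).

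Of 16 tested genes of vesicular transport and vesicle loading, the clone was higher in 5 under RA and in 4 without, and none was lower. *Slc18a1*, a vesicular monoamine transporter of the same family as *Slc18a3*, had relative signals of 55.2% and 67.9% in the RA-treated clone and 22.1% and 13.3% in the untreated clone, against 3.70% and 2.23% in RA-treated and 1.58% and 1.40% in untreated parental cells. It was 21.3-fold higher in the clone under RA (4.41 ± 0.38, adjusted p = 0.000505) and at least 5.84-fold higher without (adjusted p = 0.00196), and within the clone it rose with RA (1.84 ± 0.38, adjusted p = 0.0448). With normexp the *Slc18a1* difference was 2.52 with RA, still called, and 0.79 without (adjusted p = 0.589), so neither that call nor the bound held there. *Slc10a4*, a vesicle protein found in cholinergic and aminergic neurons, was 4.17-fold higher under RA (2.06 ± 0.27, adjusted p = 0.00262) and 2.75-fold without (adjusted p = 0.0184). *Sv2a*, a synaptic vesicle glycoprotein, was 20.0-fold higher under RA and 4.15-fold without (adjusted p = 0.000862 and 0.0279). Its relative *Sv2b* had 2.96% and 3.11% in the RA-treated clone and 3.16% and 4.19% in the untreated clone, against 0.517% and 1.15% in RA-treated and 0.844% and 1.02% in untreated parental cells, with no parental array and 1 of the 2 RA-treated clone arrays well above background. It passed the test under RA (adjusted p = 0.0157) and without (0.0286), but at signals this dim no fold is given. The call under RA ended in 5 of 19 alternatives, with values down to log2 0.46, and without RA 8 ended it and 1 turned its sign, at -0.17.

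Among esterase relatives and genes of enzyme anchoring and the neuromuscular junction, 15 were tested, with 2 higher and 2 lower in the clone under RA and 0 higher and 2 lower without. *Lamb2* and *Nid1*, basement membrane proteins, were lower in the untreated clone by 7.36-fold and 5.87-fold (-2.88 ± 0.37 and -2.55 ± 0.40, adjusted p = 0.00442 and 0.00918). *Nlgn2*, a synaptic adhesion protein with a cholinesterase-like domain, was 3.37-fold higher under RA (1.75 ± 0.30, adjusted p = 0.0073), as was *Lynx1*, a modulator of nicotinic receptors, by 1.87 ± 0.52 (adjusted p = 0.041).

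Of 28 tested transcription factors and receptors tied to the cholinergic phenotype, the clone was higher in 7 and lower in 2 under RA, and higher in 2 without. *Lhx4*, a LIM homeobox factor of motor neurons, was 6.57-fold higher under RA (2.72 ± 0.46, adjusted p = 0.00706), and *Ngfr*, the p75 neurotrophin receptor of basal forebrain cholinergic neurons, was higher under RA (1.04 ± 0.30, adjusted p = 0.0455) and without (1.38 ± 0.30, adjusted p = 0.0303). *Gata3*, a factor of the noradrenergic sympathetic fate, was 6.53-fold lower under RA (-2.71 ± 0.48, adjusted p = 0.00831), and *Gbx1*, a homeobox gene of forebrain cholinergic neurons, 6.13-fold lower (-2.62 ± 0.29, adjusted p = 0.00138). The shares called in these lists stand beside 23.2% of all features under RA and 9.84% without, and the lists mix genes known to act in opposite ways. Leaving out 1 array ended the call of *Acss1*, *Gata3*, *Lynx1*, *Ngfr* and *Nid1* under RA, of *Chka*, *Ngfr*, *Nid1*, *Pdk1*, *Slc10a4*, *Sv2a* and *Sv2b* without RA, of *Chka* and *Pld1* for RA in the parental line and of *Slc18a1* and *Gbx1* for RA in the clone. Normexp also ended the calls of *Acss1*, *Lynx1*, *Ngfr* and *Nid1* under RA, of *Sv2a* without RA, of *Chka* and *Pld1* for RA in the parental line and of *Slc18a1* and *Gbx1* for RA in the clone. With only the groups compared in the fit, *Acly*, *Gata3* and *Nlgn2* also lost their calls under RA, and with the mean of its probes *Chka* did so without RA.

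**Figure D5:**
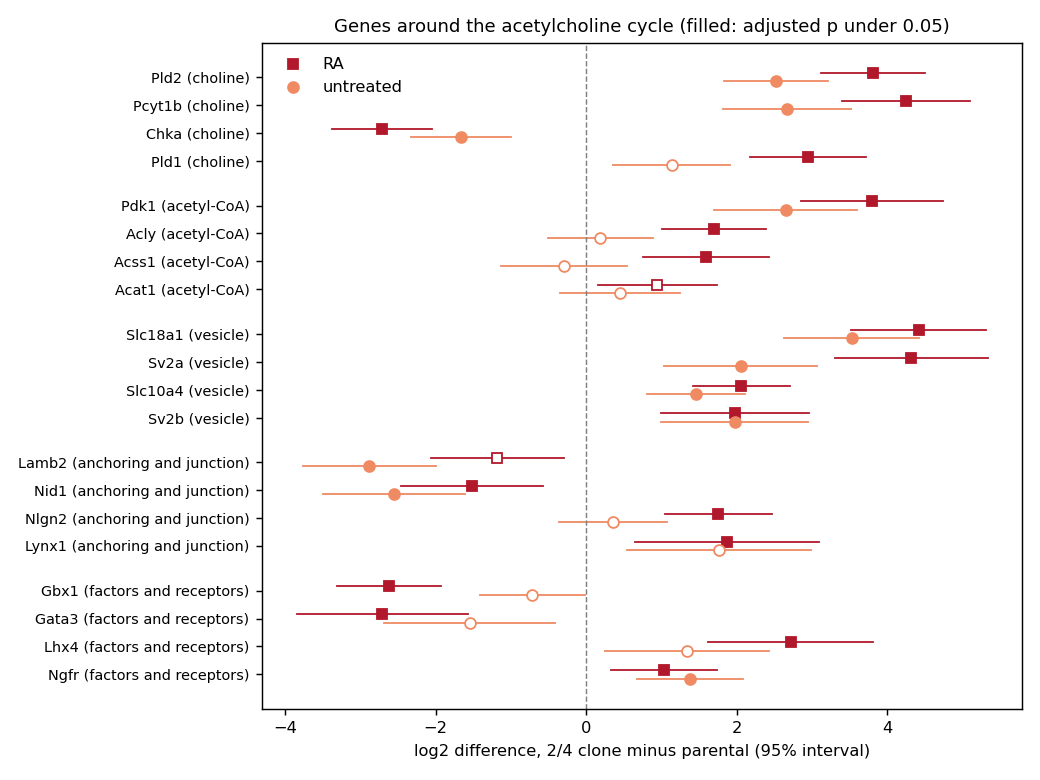
Log2 difference of the 2/4 clone minus the parental line with 95% intervals, under RA (squares) and untreated (circles), for 20 genes named from the 5 lists around the acetylcholine cycle; filled symbols have a limma adjusted p under 0.05. Slc18a1 lies at 4.41 and 3.52 and Pld2 at 3.81 and 2.52, Chka at -2.71 and -1.66; Pcyt1b, Sv2b and untreated Slc18a1 were not well above background in the parental cells compared, so their plotted folds depend on dim signals.

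The genes most like 4 of the members were found by the root-mean-square difference of centred log2 values over the 8 arrays, among 12185 named genes above background on all of them, as a description. For *Slc18a3* they were *Abcb4*, *Ino80c* and *Olfml1*, at 0.16 to 0.18, beside a standard deviation of 1.18 for *Slc18a3* itself. For *Prima1* they were *Cpne7*, *C77080* and *Lyl1* (0.21 to 0.22, own standard deviation 1.61), and for *Ache* *Ptger4*, *Madcam1* and *Gpr22* (0.37 to 0.39, own 1.39). For *Chat* the nearest genes, *Rgs7bp*, *Srp54b* and *Gm12216*, stood at 0.72 to 0.94 beside its own 1.87.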

How the data were processed

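Total RNA of 8 samples was hybridized to 1-colour Agilent mouse arrays. Per the file headers, Feature Extraction 10.7.3.1 made the deposited intensity values, subtracting background and spatial trend on every array; arrays were not scaled to each other. The header names build mm9, and no coordinates were taken from it. The series table's deposited values, also log2, differed from the scaling used here by 1 constant per array, to within 1.95e-06. From the scanner tables, log2 intensity was taken minus the log2 of each array's 75th percentile over 59305 non-control spots. Outlier spots were left out, spots of a probe averaged, and a probe was kept if it had a value on all arrays and stood well above background on 2 or more (36546 probes); the brightest stood for each gene (26211 features, 15150 with a symbol through RefSeq accessions of GRCm38.p6). limma 3.58.1 (R 4.3.3) fitted group means over the 8 arrays together, calls being Benjamini-Hochberg adjusted p under 0.05 over all features; every adjusted p printed comes from it. It was tested on simulated data. Normexp used the median spot signal, as the tables hold no mean signal. A probe dim on every array of a group gives a bound ("at least"), set against the lowest level well above background there. The number of arrays limits precision, and as the labels name no separate cultures, p-values may measure technical spread only. Members and lists were chosen with earlier results of these data known. Named genes were the 7 members, up to 4 called genes with the smallest adjusted p per list, and the 3 nearest genes per member, which for *Colq* are not reported here. From the marker lists counts and sums are given, with some markers named.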

Additional observations from a re-analysis of the deposited data

Results flagged for a closer look

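*Ache* stood out because its arrays were ordered in opposite ways with RA in the lines: both arrays of the RA-treated clone lay above both of the untreated clone, while both of the RA-treated parental cells lay below both of the untreated parental cells. Of all features, 52.9% had groups that did not overlap for RA in the clone and 44.3% for RA in the parental line, and the parental *Ache* difference did not pass the test (-0.68 ± 0.35, limma adjusted p = 0.452). The clone response minus the parental response was log2 3.14 ± 0.49 (limma adjusted p = 0.0702), which missed the threshold. It passed when probes had to be above background on every array (adjusted p = 0.0188), with a trended and robust variance (0.0208) and without replicate 2 of the RA-treated clone (0.0373), and it ranged over 19 alternatives from 2.66 to 3.56 with adjusted p from 0.0188 to 0.296.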

How the results depend on the processing

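Over the 5 tested members, 7 comparisons and 20 alternatives (19 for the interaction and the averages), 614 values kept their sign and side of the threshold, 37 lost a call, 18 gained one and 16 changed sign. The values that kept their call in every alternative were *Ache*, *Prima1* and *Slc18a3* between the lines under RA and in the average of the clone. The number of members called for RA in the clone was 2, and it was 1 with normexp, quantile normalization, every probe fitted on its own or the slide side as a block, 0 with no filter or only the groups compared, and 0 to 3 without 1 array. For RA in the parental line it was 0, and 1 when probes had to be above background on every array (the strict filter) or a trended and robust variance. For the average RA effect it was 1, and 0 with normexp or no filter, 3 with the strict filter, 2 with the trended variance and 0 to 2 without 1 array. For the average clone effect and under RA between the lines it was 3, and 3 to 5 without 1 array, 5 under RA with the strict filter. Between the untreated lines it was 2, and 1 with quantile normalization and 0 to 2 without 1 array. For the interaction it was 0, and 1 with the strict filter or the trended variance and 0 to 2 without 1 array. Sign changes touched values that were not called, and their cause was not tested. With normexp, the untreated line differences of *Ache*, *Chat* and *Colq* were -0.047, -0.064 and -0.35, the RA difference of *Colq* in the parental line was -0.35, and the interaction of *Slc18a3* was 0.014. With quantile normalization, the untreated line difference of *Colq* was -0.088, its RA difference in the parental line -0.012 and the RA difference of *Prima1* in the clone 0.12. Without 1 array, the untreated line difference ran from -0.59 to 1.35 for *Chat* and from -0.079 to 0.13 for *Colq*, the RA difference in the parental line from -1.51 to 0.43 for *Chat* and that in the clone from -0.24 to 0.061 for *Prima1*. Among called genes of the other lists, 526 values kept sign and call, 123 lost the call, and *Sv2b* between the untreated lines changed sign with normexp (-0.17). Counts of called genes under RA between the lines ran from 5 to 9 for choline supply, 1 to 6 for acetyl coenzyme A, 3 to 6 for vesicular transporters, 0 to 6 for anchoring and junction and 3 to 12 for factors and receptors. The labels give no replicate numbers that pair arrays across groups. The side of the slide holds 1 array of each group and coincides with the numbering used here, so its fit is also that of a replicate block, in which *Slc18a3* for RA in the clone lost its call (-1.35, adjusted p = 0.0608). Signal over background limits *Slc5a7*, *Bche* and the dimmer *Colq* probe.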
